A study of Homo sapiens with 18 samples.

Results

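The insulin-like growth factor (IGF) axis was read in IMR90 cells through 10 genes: the binding proteins IGFBP2, IGFBP3, IGFBP4, IGFBP5, IGFBP6 and IGFBP7, the receptors IGF1R and IGF2R, and the adaptors IRS1 and IRS2. The list was drawn up with earlier results of these data known, and the genes were then taken by symbol from the 56269 genes of the deposited table, with no threshold on their levels. Each of the 10 was found on 1 row, and each was above the filter on low values that left 13686 genes for testing. IMR90 is a cell line of human lung fibroblasts. Before any stress the cells spent 6 h in PBS or in 20 ug/ml of hyaluronan (HA) purified from naked mole-rat skin fibroblasts (NSF). HA is a long sugar polymer of the extracellular matrix. cNSF-HA is the control preparation with its polymer length kept, and fNSF-HA is the same material after partial digestion by hyaluronidase, so the pair differ in polymer length. The cells without tBHP were collected at the end of the pre-incubation. In the other 3 groups the HA or PBS was taken off, 200 uM tert-butyl hydroperoxide (tBHP), an oxidant, was given for 1 h, and the cells were collected 6 h after tBHP was started. This gave 6 groups of 3 biological replicates, named PBS, cNSF and fNSF, each without or with tBHP. Cells with tBHP were therefore also collected later than cells without it, and tBHP and the added hours cannot be told apart in these comparisons.

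IGF1 and IGF2 are secreted growth factors that signal through IGF1R, a receptor tyrosine kinase closely related to the insulin receptor. The active receptor phosphorylates the docking proteins IRS1 and IRS2, which recruit PI3 kinase and so turn on AKT and mTOR. The IGFBPs are secreted proteins that hold IGFs outside the cell and set how much of them can reach the receptor, and they are themselves cut by proteases such as PAPPA. IGFBP7 differs from the others in its weak affinity for IGFs. IGF2R, the mannose 6-phosphate receptor, takes up IGF2 for breakdown and also sorts enzymes to lysosomes. Fibroblasts secrete several IGFBPs into their surroundings.

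Binding proteins stood above receptors and adaptors in level, with the exception of IGFBP2. The levels are normalized counts per kilobase of exon, which allows genes of different length to be set side by side. In PBS cells without tBHP, IGFBP4 stood at 7653 ± 387 (SD, n = 3), IGFBP5 at 3587 ± 159 and IGFBP3 at 3316 ± 34.3 normalized counts per kilobase. IGFBP7 followed at 1729 ± 127 and IGFBP6 at 1364 ± 93.0. The receptors IGF2R and IGF1R stood at 383 ± 7.78 and 119 ± 0.276, with IRS1 between them at 295 ± 6.89. The lowest were IRS2 at 31.1 ± 0.428 and IGFBP2 at 24.1 ± 1.80 per kilobase. In this group no neighbours in the order overlapped in their replicates. The same order was seen in cNSF and fNSF cells without tBHP, where IGFBP5 and IGFBP3 overlapped in fNSF cells. With tBHP, IRS1 and IGF1R came to lie side by side, at 200.5 ± 29.8 and 198 ± 9.94 per kilobase in PBS cells, and their ranges overlapped in each of the 3 pre-incubations. IGFBP7 and IGFBP6 also overlapped in each of the 3 groups with tBHP.

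Positions are given on GRCh38 with the gene models of GENCODE 29. IGFBP2 (chr2:216632828-216664436, plus strand) and IGFBP5 (chr2:216672105-216695525, minus strand) are neighbours, with 7668 bases between them. IRS1 (chr2:226731317-226799759, minus strand) lies farther along the same chromosome. IGFBP3 is at chr7:45912245-45921874 (minus), IGFBP4 at chr17:40443461-40457731 (plus), IGFBP6 at chr12:53097436-53102345 (plus) and IGFBP7 at chr4:57030773-57110385 (minus). IGF1R is at chr15:98648539-98964530 (plus), IGF2R at chr6:159969099-160113507 (plus) and IRS2 at chr13:109752698-109786568 (minus). The library kit does not mark the strand, so reads from overlapping exons on opposite strands cannot be told apart. Such exons cover 298 bases of IGFBP5 (with AC007563.2), 115 bases of IRS2 (with AL162497.1), and 270 and 94 bases of IGFBP7 (with POLR2B and IGFBP7-AS1). For IGFBP7 the POLR2B overlap is 14.0% of its exon bases, so its level is less certain than the others.

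The libraries held 20261103 to 26287660 reads assigned to genes. The fewest reads for one of the 10 genes in a library were 61, for IGFBP2, and the most were 26023, for IGFBP5. Fibroblast markers were present throughout: each of the 10 listed was above 100 normalized counts in every library, and their sum ranged from 458889 to 722451. Of the epithelial markers 3 of 5 were at 0 in every library, and 5 of 5, with 3 of 4 endothelial and 3 of 4 blood cell markers, stayed below 10 in every library. The other endothelial marker, VWF, reached 25.0, and the other blood cell marker, CD68, reached 11.3. The summed level of the endothelial markers was higher with tBHP, at 6.53 to 9.66 without and 13.1 to 25.0 with it in PBS cells, 7.82 to 12.4 and 14.2 to 18.3 in cNSF cells, and 6.52 to 14.8 and 13.8 to 25.1 in fNSF cells, where the ranges overlapped. The fibroblast sum ran from 594921 to 616446 over the libraries without tBHP. With tBHP it spread to 590718 to 722451 in PBS cells, 627193 to 643734 in cNSF cells and 458889 to 663351 in fNSF cells. The part of either shift in the tBHP changes given below was not tested.

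Replicates with tBHP were farther apart than those without it. The median SD on the log2 scale over all genes tested was 0.076 without tBHP and 0.206 with it. Among the 10 genes the SD with tBHP ran from 0.071 for IGFBP3 to 0.328 for IGFBP6. Replicate 3 of cNSF with tBHP had the highest level of IGFBP2, IGFBP4, IGFBP6 and IGFBP7 among the 9 libraries with tBHP, and the lowest level of IGFBP5, IGF1R, IGF2R and IRS1. Replicate 2 of fNSF with tBHP had the lowest level of IGFBP2, IGFBP4, IGFBP6 and IGFBP7. Replicate 1 of PBS with tBHP had the highest level of IGF1R, IGF2R, IRS1 and IRS2. Genes of high GC content moved in some of these libraries: among the genes that make up the fifth highest in GC content, the median deviation from the group mean was -0.42 in replicate 2 and 0.35 in replicate 3 of fNSF with tBHP, and 0.18 in replicate 1 of PBS with tBHP. IGFBP6 (63.0% GC), IGFBP4 (62.5%) and IGFBP2 (59.8%) deviated in the same direction as that median in these 3 libraries. IRS2 (58.7%) did so too, as did 2 of the 3 genes lowest in GC content, IGFBP7 (50.3%, at -0.13, 0.22 and 0.12) and IRS1 (50.7%, at -0.13, 0.11 and 0.24). IGFBP3, IGFBP5, IGF1R and IGF2R deviated in the opposite direction in both fNSF libraries. In replicate 3 of cNSF with tBHP that median was 0.11. IGFBP2, IGFBP4, IGFBP6 and IGFBP7 deviated upward with it by 0.20 to 0.30, and IGFBP3 by 0.061. IGF2R (-0.41), IRS1 (-0.36), IGF1R (-0.31), IGFBP5 (-0.30) and IRS2 (-0.034) went against it. IGFBP3, at 52.7% GC, deviated by no more than 0.10 in any library with tBHP. The part of base composition in the group differences was not tested apart from 1 correction, a removal of the trend over GC content and exon length, which was chosen after seeing the data and also takes out real changes that follow GC content.

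**Figure D1:**
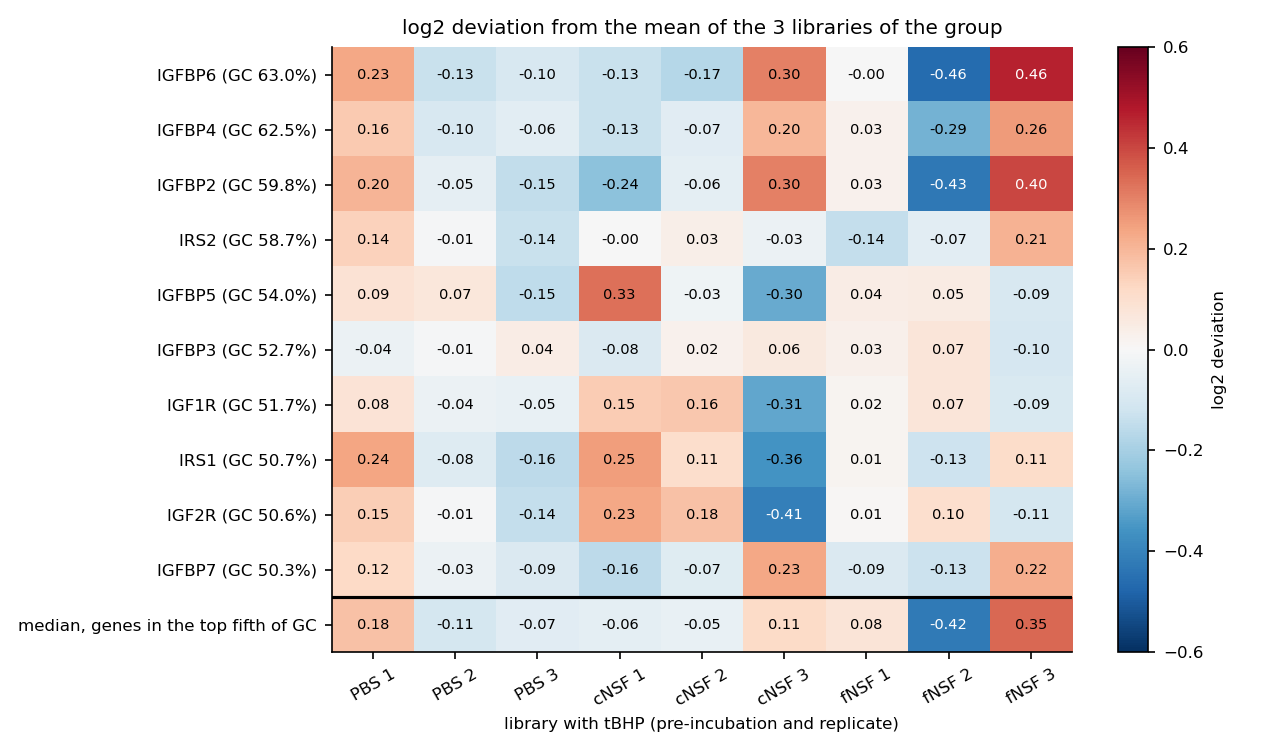
Log2 deviation of each gene from the mean of its group in the 9 libraries with tBHP, with genes ordered from high to low GC content and, in the bottom row, the median over all genes of the fifth highest in GC content. IGFBP6 is at -0.46 in replicate 2 and 0.46 in replicate 3 of fNSF, beside medians of -0.42 and 0.35, while IGFBP3 stays within 0.10 of its group mean.

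Deviations within groups were shared by 2 sets of 4 genes, which were formed after seeing the values. Over the 18 libraries, with the group means taken off, IGFBP2, IGFBP4, IGFBP6 and IGFBP7 correlated with each other at Pearson's r from 0.84 to 0.97. IGFBP5, IGF1R, IGF2R and IRS1 correlated with each other at r from 0.71 to 0.94, while r between the sets ran from -0.67 to 0.069. The other two genes belong to neither set: IRS2 correlated at 0.48 to 0.55 with the first set and at 0.48 with IRS1 but from -0.094 to 0.14 with the rest of the second, and IGFBP3 correlated at -0.62 to -0.17 with each of the other 9 genes. These are descriptions over libraries that share their depth and base composition effects, and the 9 libraries with tBHP supply most of the spread.

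Upstream sequence is shown for IGFBP3 and IRS1, which fell with tBHP, and IRS2, the paralogue of IRS1, which rose. They are the 3 of the 5 genes that moved in all 3 pre-incubations whose windows hold the motif marked here; the windows of IGFBP5 and IGF1R hold 0 matches. The windows are the bases just before the RefSeq start on GRCh38.p14, printed 5′ to 3′ on the strand of the gene, and all 3 lie outside exons of GENCODE 29. Capitals mark CCTGCG on either strand, the motif that the study names for the intracellular domain of the HA receptor CD44. The IGFBP3 window (chr7:45921275-45921522, minus strand) lies within the IGFBP3 gene model of GENCODE but outside its exons, and is 248 bases long because the 2 bases next to the start lie in an exon. The IRS1 (chr2:226799821-226800070) and IRS2 (chr13:109786584-109786833) windows, both on the minus strand, lie upstream of their genes.
IGFBP3: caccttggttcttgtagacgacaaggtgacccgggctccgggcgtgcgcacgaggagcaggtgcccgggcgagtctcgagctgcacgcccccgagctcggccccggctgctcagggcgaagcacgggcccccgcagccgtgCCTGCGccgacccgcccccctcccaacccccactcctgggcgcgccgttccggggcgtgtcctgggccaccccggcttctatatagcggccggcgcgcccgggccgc
IRS1: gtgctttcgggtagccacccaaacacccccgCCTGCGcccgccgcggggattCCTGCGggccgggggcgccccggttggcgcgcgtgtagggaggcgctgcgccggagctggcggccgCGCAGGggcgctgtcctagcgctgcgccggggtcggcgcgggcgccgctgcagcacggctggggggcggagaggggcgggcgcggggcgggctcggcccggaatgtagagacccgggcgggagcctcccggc
IRS2: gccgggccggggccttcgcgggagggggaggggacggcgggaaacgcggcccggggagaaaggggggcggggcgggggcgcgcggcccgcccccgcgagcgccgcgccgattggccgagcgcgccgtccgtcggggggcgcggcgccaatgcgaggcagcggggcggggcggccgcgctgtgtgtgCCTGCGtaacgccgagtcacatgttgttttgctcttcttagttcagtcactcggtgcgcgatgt
The motif occurred 3 times in the IRS1 window, of which 1 was on the reverse strand, and 1 time each in those of IGFBP3 and IRS2, with no overlaps between matches. Of the 10 genes, 9 have a window in the table used and 4 hold the motif in the 250 bases before a start, the fourth being IGF2R with 1 match. These genes have 11 windows in all, since IGFBP2 has 3, and 4 of the 11 hold the motif. Among 35116 such windows of all genes 20.2% hold it, and 0.851% hold it 3 or more times. These shares are not matched for GC content, and the windows of the 10 genes that hold the motif are 76% to 80.8% GC. The IGF1R window, without a match, is 81.2% GC. The study searched longer promoter regions. A match describes these letters and is not evidence of binding.

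With tBHP, IGFBP3, IGFBP5 and IRS1 fell and IGF1R and IRS2 rose in all 3 pre-incubations. IGFBP3 and IGFBP5 are IGF carriers, IGF1R is the signalling receptor, and IRS1 and IRS2 are its adaptors, so both directions occurred within the adaptors. In limma, at an adjusted p under 0.05, PBS cells had 3 of the 10 genes higher and 3 lower, cNSF cells 4 and 3, and fNSF cells 2 and 3. Among all 13686 genes, 51.1% passed in PBS cells (24.2% higher, 26.9% lower), 50.8% in cNSF cells (24.0% and 26.8%) and 41.9% in fNSF cells (19.2% and 22.7%), so the 10 genes passed at a share not far from that of the table as a whole. The groups did not overlap for 8, 7 and 6 of the 10 genes, beside 63.8%, 63.7% and 48.7% of all genes. The median log2 change of the 10 genes was 0.18, 0.25 and 0.048, beside medians of 0.0043, -0.00053 and -0.034 over all genes. Changes below are log2 differences of normalized count + 1, given ± SE. In RNA from whole cultures, fewer cells that make a transcript and less of it per cell cannot be told apart.

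**Figure D2:**
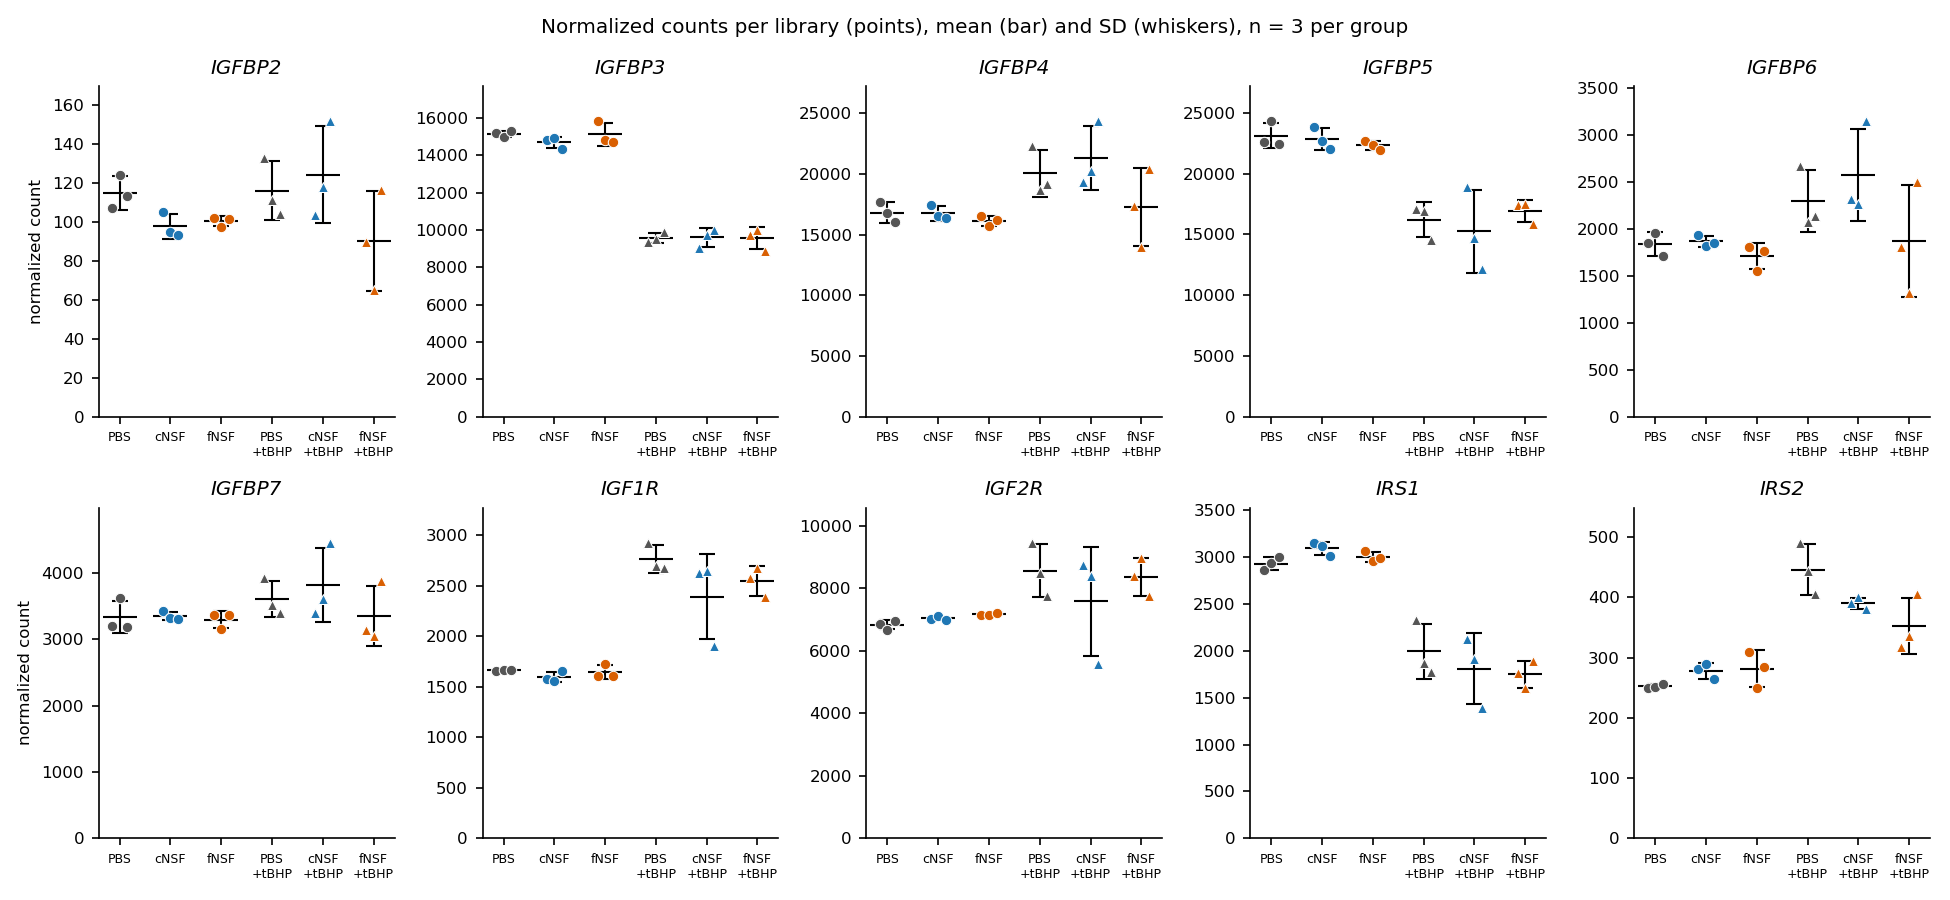
Normalized counts of the 10 genes in each of the 18 libraries, with the mean (bar) and SD (whiskers) of each group of 3, circles without and triangles with tBHP, and each y axis starting at 0. IGFBP3, IGFBP5 and IRS1 are lower and IGF1R and IRS2 are higher in every library with tBHP than in every library without it at the same pre-incubation, and the 9 libraries with tBHP are the more spread.

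IGFBP3, the main IGF carrier of blood plasma, fell in each pre-incubation and had the smallest spread of the 10 genes with tBHP. In PBS cells it stood at 15194, 14985 and 15292 normalized counts without tBHP and at 9342, 9536 and 9874 with it. In cNSF cells the values were 14800.4, 14940.0 and 14353 without and 9055, 9760.3 and 10012 with tBHP. In fNSF cells they were 15819, 14814 and 14744 without and 9739, 10027 and 8904 with tBHP. The highest library with tBHP, at 10027, was thus well below the lowest without it, at 14353. In mean level this was a change of -36.8%, -34.6% and -36.8% in PBS, cNSF and fNSF cells. On the log2 scale the changes were -0.66 ± 0.058, -0.61 ± 0.058 and -0.66 ± 0.058 in PBS, cNSF and fNSF cells, with adjusted p of 6.01e-08, 1.73e-07 and 7.01e-08. A larger fall was seen in 12.9%, 14.1% and 9.49% of all genes.

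IGFBP5, which binds IGFs and components of the matrix, fell as well, with a wider spread. In PBS cells it went from 22573, 24282 and 22458 normalized counts to 17125, 16901 and 14530.2. In cNSF cells it went from 23833, 22690.0 and 21978 to 18871, 14738 and 12151. In fNSF cells it went from 22659, 22359 and 21933 to 17413, 17514 and 15838. The groups did not overlap, and replicate 3 of cNSF with tBHP was the lowest library at 12151. Its log2 changes were -0.52 ± 0.11, -0.60 ± 0.11 and -0.40 ± 0.11, with adjusted p of 7.33e-04, 1.83e-04 and 0.00650. Without the lowest library the change in cNSF cells was -0.45. IGFBP2, its neighbour on chromosome 2, did not pass the test in any pre-incubation.

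IGFBP4 and IGFBP6, secreted binding proteins of which IGFBP6 prefers IGF2, rose in cNSF cells, but both calls were lost without 1 library. IGFBP4 stood at 17475, 16527 and 16346 normalized counts in cNSF cells without tBHP and at 19366, 20271 and 24344 with it. IGFBP6 stood at 1933, 1813 and 1846 and at 2319, 2262 and 3141. The groups did not overlap, and in each case replicate 3 with tBHP lay well above the other two. The log2 changes were 0.34 ± 0.11 (adjusted p = 0.0149) for IGFBP4 and 0.45 ± 0.17 (adjusted p = 0.0340) for IGFBP6. Without that replicate they were 0.24 (adjusted p = 0.0890) and 0.30 (adjusted p = 0.187), and with the GC and length trend removed they were -0.094 and -0.034, past the threshold in neither. The call of IGFBP4 was also lost under quantile normalization (adjusted p = 0.231), and that of IGFBP6 without filtering on low values (0.0614) and without any one of cNSF replicates 1, 2 and 3, where adjusted p ran from 0.0567 to 0.0860.

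In PBS cells IGFBP4 went from 17714, 16777 and 16016 to 22313, 18719.5 and 19173 normalized counts, without overlap. The log2 change of 0.25 ± 0.11 missed the threshold (adjusted p = 0.0636), and it passed under TMM scaling (adjusted p = 0.0289), in edgeR (0.0265), with only the compared groups in the fit (0.00929) and with the replicate block (0.0470). It also passed without replicate 3 of cNSF with tBHP (0.0427) or without replicate 2 or 3 of fNSF with tBHP (0.0132 and 0.0240), libraries that enter it only through the shared spread. With the GC and length trend removed it was -0.10. IGFBP6 in PBS cells went from 1846, 1955 and 1705 to 2671, 2075 and 2130.3, also without overlap, and its change of 0.31 ± 0.17 gave an adjusted p of 0.131. That value was 0.0139 with only the compared groups in the fit, and 0.0346 and 0.0432 without replicate 2 or 3 of fNSF with tBHP, while with the GC and length trend removed the change was -0.063. Without replicate 1 of PBS with tBHP, and with no such correction, the change of IGFBP6 was 0.20 (adjusted p = 0.409) and that of IGFBP4 0.17 (adjusted p = 0.254). In fNSF cells the levels with tBHP lay on both sides of those without it: IGFBP4 was at 16519, 15689.6 and 16257 without and 17408, 14008 and 20414 with tBHP. IGFBP6 was at 1809, 1555 and 1764 without and 1806, 1314 and 2494 with tBHP. The log2 changes there were 0.080 ± 0.11 and 0.085 ± 0.17 (adjusted p = 0.588 and 0.721). Without the low replicate 2 of fNSF with tBHP, the change of IGFBP4 was 0.22 (adjusted p = 0.0488).

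IGFBP2 and IGFBP7 did not pass the test with tBHP in any pre-incubation. IGFBP2 was the scarcest of the 10 genes, with 61 to 149 reads per library. Its values with tBHP were 133, 111 and 104 in PBS cells, 103, 118 and 151 in cNSF cells and 89.4, 64.9 and 116 in fNSF cells. Without tBHP its 9 values ran from 93.0 to 124. The log2 changes of IGFBP2 had 95% confidence intervals of -0.36 to 0.38, -0.045 to 0.70 and -0.56 to 0.18 in PBS, cNSF and fNSF cells. For IGFBP7 the intervals were narrower, at -0.10 to 0.32, -0.030 to 0.39 and -0.19 to 0.23. Its mean level was 3337 ± 245 without and 3613 ± 272 with tBHP in PBS cells (SD, n = 3).

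IGF1R rose in each pre-incubation, by 66.3% in mean level in PBS cells, 49.6% in cNSF cells and 54.7% in fNSF cells. In PBS cells it stood at 1658, 1666 and 1661 normalized counts without tBHP and at 2922, 2691 and 2674 with it. In cNSF cells the values were 1580.1, 1560.0 and 1652 without and 2624, 2644 and 1902 with tBHP. In fNSF cells they were 1604, 1726 and 1607 without and 2575, 2675 and 2385 with tBHP. The groups did not overlap, and replicate 3 of cNSF with tBHP was the lowest of the 9 at 1902. IGF1R changed by 0.73 ± 0.096, 0.56 ± 0.096 and 0.63 ± 0.096 on the log2 scale, with adjusted p of 6.51e-06, 1.08e-04 and 4.53e-05. Without that library the change in cNSF cells was 0.72.

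IGF2R, which clears IGF2, moved less. In PBS cells it went from 6871, 6682 and 6953 to 9457, 8508 and 7742 normalized counts. In cNSF cells it went from 7027, 7108 and 7002 to 8745, 8409.9 and 5592, and in fNSF cells from 7157, 7146 and 7225 to 8394, 8960.0 and 7763. The groups overlapped in cNSF cells through replicate 3 with tBHP, the lowest of the 18 libraries. IGF2R had log2 changes of 0.32 ± 0.12 (adjusted p = 0.0304), 0.078 ± 0.12 (adjusted p = 0.602) and 0.22 ± 0.12 (adjusted p = 0.148) in PBS, cNSF and fNSF cells. Without that single library IGF2R passed in all 3, at 0.32 (adjusted p = 5.25e-04), 0.28 (0.00417) and 0.22 (0.0104). It also passed in all 3 with the GC and length trend removed, at 0.23, 0.17 and 0.21. The call in PBS cells was lost without filtering on low values (adjusted p = 0.0620), under quantile normalization (0.0643) and without any one of PBS replicates 1, 2 and 3 or PBS with tBHP replicates 1 and 2, where adjusted p ran from 0.0582 to 0.133.

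The adaptors moved in opposite directions. IRS1 fell: in PBS cells it stood at 2863, 2939 and 2999.8 normalized counts without tBHP and at 2333, 1875 and 1778 with it. In cNSF cells the values were 3154, 3119.9 and 3014 without and 2123, 1919 and 1391 with tBHP, and in fNSF cells 3065, 2957 and 2994 without and 1767, 1602 and 1889 with tBHP. No library with tBHP reached the lowest one without it, at 2863. For IRS1 the log2 changes were -0.57 ± 0.12, -0.80 ± 0.12 and -0.78 ± 0.12, with adjusted p of 7.85e-04, 3.30e-05 and 4.74e-05.

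IRS2 rose from 250.1, 252 and 257 to 490.2, 443 and 405 normalized counts in PBS cells. In cNSF cells it rose from 281, 289 and 264 to 390.0, 399.7 and 381, and in fNSF cells from 309.9, 249 and 285 to 317, 335 and 405. The 3 groups with tBHP lay above their own controls, by the narrowest margin in fNSF cells, where the highest library without tBHP was at 309.9 and the lowest with it at 317. The log2 changes were 0.81 ± 0.10, 0.49 ± 0.10 and 0.32 ± 0.10, with adjusted p of 4.91e-06, 8.28e-04 and 0.0187. The call in fNSF cells was lost with only the compared groups in the fit (adjusted p = 0.109), without replicate 2 of fNSF (0.113) and without replicate 3 of fNSF with tBHP (0.105). With the GC and length trend removed, the change of IRS2 in PBS cells was 0.54, in cNSF cells 0.27 and in fNSF cells 0.27, each past the threshold.

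**Figure D3:**
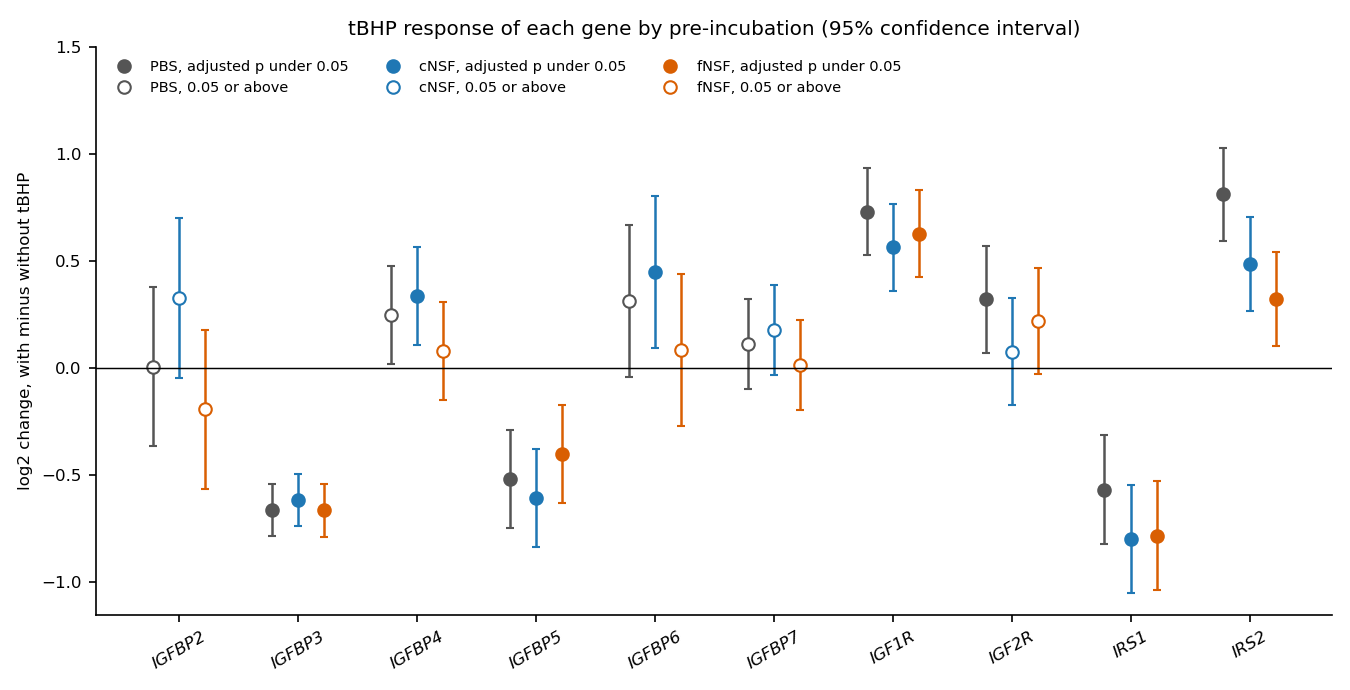
Log2 change with tBHP (y axis, normalized count + 1) of each gene in PBS, cNSF and fNSF cells, with 95% confidence intervals from limma, filled where the adjusted p is under 0.05. IGFBP3, IGFBP5 and IRS1 lie below 0 and IGF1R and IRS2 above 0 in all 3 pre-incubations, with the narrowest interval for IGFBP3 and IRS2 at 0.81, 0.49 and 0.32.

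Without tBHP, HA of either polymer length left none of the 10 genes past the threshold against PBS or against each other. In limma 0% of all genes tested passed in each of these 3 comparisons, and none of the 10 genes had an unadjusted p under 0.05. Over all genes tested, 126, 109 and 206 had one, in cNSF against PBS, fNSF against PBS and cNSF against fNSF. edgeR called 0 genes in each, and DESeq2 called 0, 3 and 0, with none of the 10 among them. The limma fit shares its spread over all 18 libraries, and the median SD was 0.076 without and 0.206 with tBHP. The libraries with tBHP thus widen the SE and intervals given here. With only the compared groups in the fit, 0, 21 and 980 genes passed in the same order, with 0 of the 10 among them. The genes of the 10 with the smallest unadjusted p against PBS were IGFBP2 and IRS2. IGFBP2 stood at 107, 124 and 113 normalized counts in PBS cells, 105, 94.8 and 93.0 in cNSF cells and 102, 97.6 and 102 in fNSF cells. Its log2 differences from PBS were -0.23 ± 0.18 for cNSF and -0.19 ± 0.18 for fNSF, and those of IRS2 were 0.14 ± 0.10 and 0.15 ± 0.10. The IRS2 difference for fNSF was 0.076 without replicate 1 of fNSF and 0.23 without replicate 2. Between cNSF and fNSF the smallest unadjusted p were those of IGFBP6 (0.13 ± 0.17) and IGFBP3 (-0.041 ± 0.058). IGFBP6 was at 0.061 without replicate 2 of fNSF and at 0.034 with the GC and length trend removed. IGFBP3 was at -0.0081 without replicate 1 of fNSF and at -0.024 without replicate 3 of cNSF. The adjusted p of each of the 10 genes was 1 when rounded. The 95% confidence intervals of the 10 genes lay within -0.60 to 0.48 in these 3 comparisons, and those of IGFBP3 were -0.17 to 0.078, -0.13 to 0.12 and -0.16 to 0.082. The groups did not overlap for 6 of 10 genes in cNSF against PBS, beside 15.2% of all genes, and for 2 of 10 in each of the other comparisons, beside 14.0% and 25.0%. Among these 6, IGFBP2, IGFBP3, IGF1R, IGF2R, IRS1 and IRS2, the differences in mean level ran from -15.0% for IGFBP2 to 9.96% for IRS2.

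With tBHP, none of the 10 genes passed between pre-incubations either. The SE in these comparisons share their spread with the libraries without tBHP, which were closer together. The range of the differences was wider than without tBHP, while those of single genes were larger in some and smaller in others, IGFBP2 in cNSF against PBS being at -0.23 without tBHP and 0.088 with it. Of all genes, 0% passed in cNSF against PBS, 0.139% in fNSF against PBS (0.117% higher, 0.0219% lower) and 0% in cNSF against fNSF, while 1183, 3102 and 4412 had an unadjusted p under 0.05. edgeR called 0, 36 and 0 genes and DESeq2 5, 406 and 398, with none of the 10 among them. In cNSF against PBS the smallest unadjusted p were those of IGF1R, at -0.22 ± 0.096 (adjusted p = 0.564), and IRS2, at -0.19 ± 0.10 (adjusted p = 0.614). Without replicate 3 of cNSF with tBHP the difference of IGF1R was -0.068, and with the GC and length trend removed it was -0.094. Without replicate 1 of PBS with tBHP the difference of IRS2 was -0.12. In fNSF against PBS they were those of IRS2, at -0.34 ± 0.10 (adjusted p = 0.119), and IGFBP2, at -0.39 ± 0.18 (adjusted p = 0.205). With the GC and length trend removed they were -0.12 and -0.16. IRS2 stood at 490.2, 443 and 405 in PBS cells, 390.0, 399.7 and 381 in cNSF cells and 317, 335 and 405 in fNSF cells with tBHP, and replicate 3 of the last group, at 405.5, overlapped with the lowest PBS library, at 404.8. The groups did not overlap for 2 of 10 genes in cNSF against PBS, IGF1R and IRS2 (9.57% of all genes), for 0 of 10 in fNSF against PBS (12.0%) and for 0 of 10 in cNSF against fNSF (13.4%).

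Between the polymer lengths with tBHP, IGFBP6 and IGFBP4 had the smallest unadjusted p. IGFBP6 was higher in cNSF than in fNSF cells by 0.49 ± 0.17 and IGFBP4 by 0.31 ± 0.11, each with an adjusted p of 0.0981. The groups overlapped in both, since IGFBP6 was at 2319, 2262 and 3141 in cNSF cells and at 1806, 1314 and 2494 in fNSF cells. The 95% confidence intervals were 0.14 to 0.85 and 0.085 to 0.54, while that of IGFBP3 was -0.11 to 0.13. The fit shares the spread of each gene over all 18 libraries. On the log2 scale the SD within groups was 0.093 without and 0.328 with tBHP for IGFBP6. For IGFBP4 it was 0.056 and 0.203. The intervals of IGFBP6 and IGFBP4 therefore understate the spread among libraries with tBHP. Leaving out replicate 3 of fNSF with tBHP, which had high levels of GC-rich genes, changed this comparison for the table as a whole. The 2 fNSF libraries left gave 5586 genes called against cNSF, among them IGFBP6 (0.72), IGFBP4 (0.44), IGFBP2 (0.68) and IGFBP7 (0.30). They gave 4024 genes called against PBS, among them IRS2 (-0.45), IGFBP2 (-0.59), IGFBP6 (-0.56) and IGFBP4 (-0.36). Leaving out replicate 2 of that group, which had low levels of GC-rich genes, moved the values the other way, and 0 genes were then called in either comparison. Against cNSF the differences were then 0.26 for IGFBP6, 0.17 for IGFBP4, 0.26 for IGFBP2 and 0.12 for IGFBP7. Against PBS they were -0.31 for IRS2, -0.18 for IGFBP2, -0.10 for IGFBP6 and -0.086 for IGFBP4. With the GC and length trend removed and all libraries kept, IGFBP6 differed by 0.014 and IGFBP4 by -0.12 between cNSF and fNSF. Against PBS, fNSF then differed by -0.0063 for IGFBP6 and 0.078 for IGFBP4, where the values without the correction were -0.33 and -0.23. With that correction 0 of the 10 genes passed in any comparison between pre-incubations.

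**Figure D4:**
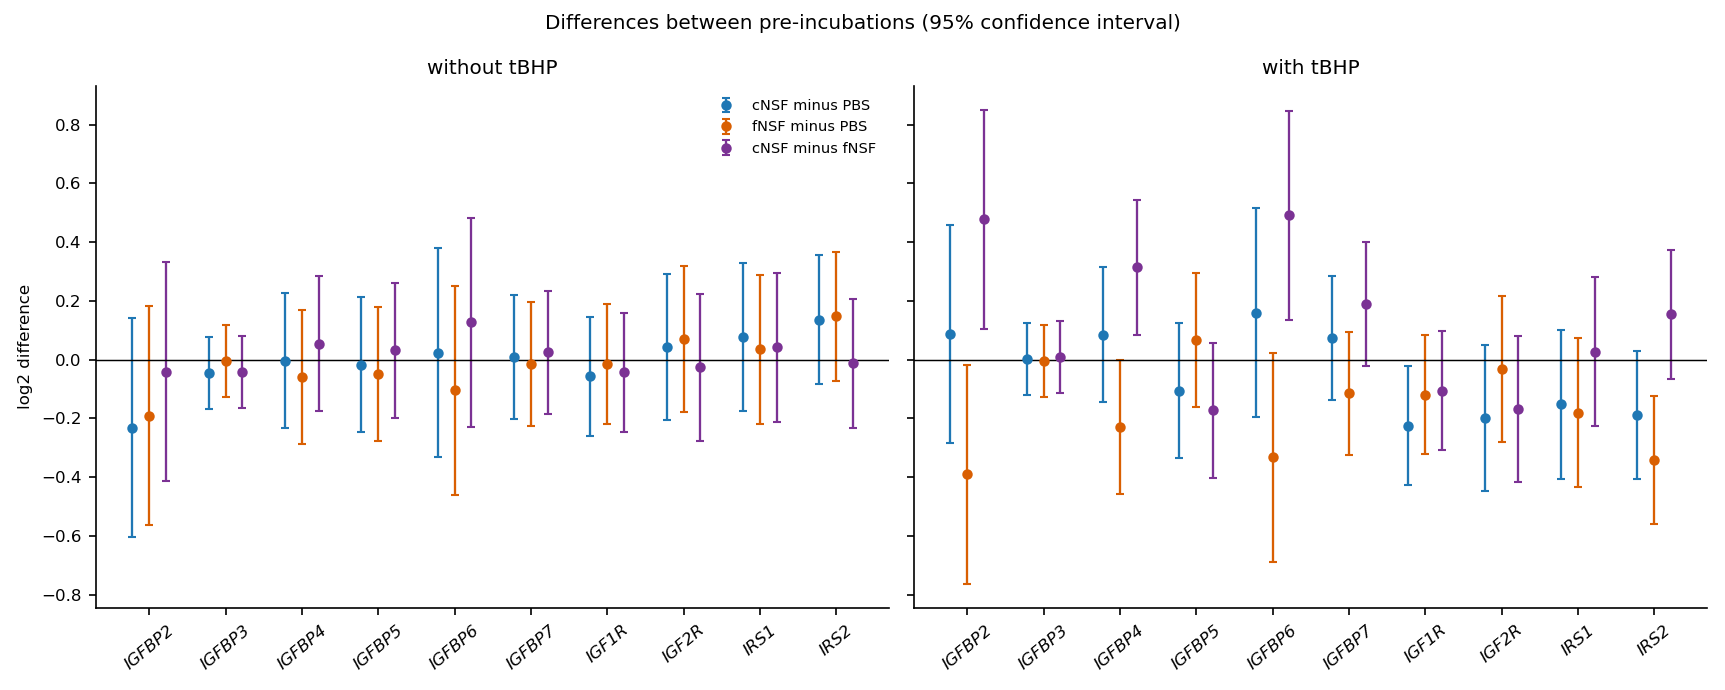
Log2 differences between pre-incubations (y axis, normalized count + 1) of each gene without tBHP (left) and with tBHP (right), with 95% confidence intervals from limma. None of the 10 genes passes the adjusted threshold in either panel, and the differences run from -0.23 to 0.15 without tBHP and from -0.39 to 0.49 with it.

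Whether the tBHP response itself differed between pre-incubations was tested as an interaction, and none of the 10 genes passed. limma called 0% of all genes in each of the 3 interactions, with 555, 942 and 533 genes at an unadjusted p under 0.05 (cNSF against PBS, fNSF against PBS, cNSF against fNSF). In the same order edgeR called 0 genes in each, and DESeq2 called 0, 6 and 0, with none of the 10 among them. IRS2 had the smallest unadjusted p of the 10 genes in both comparisons with PBS. The log2 response of IRS2 minus that in PBS cells was -0.32 ± 0.15 in cNSF cells (adjusted p = 0.999) and -0.49 ± 0.15 in fNSF cells (adjusted p = 0.667). These 2 differences share the PBS libraries. Under removal of the GC and length trend they were -0.27 and -0.27. Next were IGF2R in cNSF against PBS (-0.24 ± 0.17, adjusted p = 0.999) and IRS1 in fNSF against PBS (-0.21 ± 0.17, adjusted p = 0.700). The IGF2R value was -0.038 without replicate 3 of cNSF with tBHP and -0.060 with the GC and length trend removed. The IRS1 value was -0.10 without replicate 1 of PBS with tBHP. Between cNSF and fNSF the leading genes were IGFBP2 (0.52 ± 0.25) and IGFBP4 (0.26 ± 0.15), each with an adjusted p of 0.710, and with that trend removed they were at 0.30 and -0.091. Without replicate 2 of fNSF with tBHP they were at 0.31 and 0.12, and without replicate 3 of cNSF with tBHP IGFBP4 was at 0.16. For IGFBP3 the intervals of the interaction were -0.13 to 0.22, -0.18 to 0.17 and -0.12 to 0.22, the narrowest of the 10 genes.

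The rest of the pathway was read from a list of 54 other genes grouped by role, of which 43 were expressed highly enough to be tested. In PBS cells 15 of them rose and 10 fell with tBHP, in cNSF cells 15 and 11, and in fNSF cells 12 and 6. Their median log2 change was 0.084, -0.018 and 0.074, beside 0.0043, -0.00053 and -0.034 over all genes. The counts by role below are over 2 to 9 genes each and are a description, to be read against the shares of all genes: higher in 24.2%, 24.0% and 19.2% and lower in 26.9%, 26.8% and 22.7% in PBS, cNSF and fNSF cells. The 43 genes gave 0 calls in each comparison between pre-incubations and in each interaction. The ligand IGF1 and the binding proteins IGFBP1, IGFBPL1 and IGFALS were under the filter, with a mean of 1.09 normalized counts or less, and INS was at 0, so IGF2 was the ligand with measurable transcript. The read-through gene INS-IGF2 shares exons with IGF2 and was at 0 in every library, so how reads were split between them leaves the level of IGF2 uncertain. IGF2 stood at 97.2 ± 11.7 (SD, n = 3) in PBS cells and 141 ± 5.66 with tBHP, a log2 change of 0.54 ± 0.16 (adjusted p = 0.00775). In cNSF and fNSF cells the change of IGF2 was 0.25 ± 0.16 and 0.037 ± 0.16, past the threshold in neither. The insulin receptor INSR rose like IGF1R, by 0.71 ± 0.12, 0.64 ± 0.12 and 0.55 ± 0.12 (adjusted p = 1.11e-04, 3.10e-04 and 0.00139).

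Of the 6 IGFBP proteases and their inhibitors, 2 rose and 1 fell in each pre-incubation. PAPPA, the protease that cleaves IGFBP4, rose from 765 ± 17.0 to 1776 ± 129 normalized counts in PBS cells (log2 1.21 ± 0.15, adjusted p = 3.77e-06). Its changes in cNSF and fNSF cells were 0.75 ± 0.15 and 1.13 ± 0.15. STC2, a secreted inhibitor of PAPPA, rose from 5724 ± 55.7 to 14475 ± 1235 (log2 1.34 ± 0.078, adjusted p = 3.02e-10), and by 1.32 ± 0.078 and 1.18 ± 0.078 in the other cells. The one that fell was ADAM12, a membrane metalloprotease that can cleave IGFBPs, at -0.35 ± 0.098, -0.42 ± 0.098 and -0.35 ± 0.098.

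Of the 8 further adaptors tested, 4 were higher in PBS cells, 5 in cNSF cells and 3 in fNSF cells, and 0 were lower in any of them. GRB10, an adaptor that restrains the insulin and IGF receptors, went from 1413 ± 42.4 to 2771 ± 46.3 normalized counts in PBS cells (log2 0.97 ± 0.059, adjusted p = 5.24e-10). The docking protein GAB1 rose by 0.73 ± 0.17 (adjusted p = 0.00136). Of the 9 PI3 kinase and AKT genes tested, 0 were higher and 6, 6 and 3 were lower in PBS, cNSF and fNSF cells. The median log2 change of these 9 was -0.45, -0.54 and -0.22, beside the medians of all genes given above. The catalytic subunit PIK3CB fell from 604 ± 48.4 to 294 ± 21.5 (log2 -1.03 ± 0.12, adjusted p = 2.28e-06), and the regulatory subunit PIK3R3 from 458 ± 39.0 to 175 ± 28.8 (log2 -1.39 ± 0.12, adjusted p = 6.01e-08). Both also fell in cNSF and fNSF cells, with PIK3R3 at -1.55 ± 0.12 and -1.32 ± 0.12.

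Among 6 brakes on the signal, 3 rose and 2 fell with tBHP where the cells had been in PBS or cNSF-HA, and 2 rose and 1 fell in fNSF cells. The median log2 change of these 6 was 0.036, -0.029 and -0.039 in PBS, cNSF and fNSF cells. The 2 named next had the largest responses in PBS cells, and both rose. The pseudokinase TRIB3, known as a stress-induced gene that binds AKT, went from 282 ± 11.1 to 3802 ± 565 normalized counts in PBS cells, a log2 change of 3.74 ± 0.12 (adjusted p = 2.35e-13). The phosphatase PTPN1, which acts on the insulin receptor, rose by 0.43 ± 0.056 (adjusted p = 6.39e-06). In the mTOR branch 3 of 9 genes were higher and 1 lower in each pre-incubation. DDIT4, an inhibitor of mTOR that is known to respond to stress, rose from 325 ± 26.1 to 3145 ± 354 (log2 3.27 ± 0.12, adjusted p = 9.41e-13). EIF4EBP1, a repressor of translation under mTOR, rose by 1.17 ± 0.15 (adjusted p = 3.77e-06). The one that fell was RPS6KB1, the S6 kinase under mTOR, at -0.49 ± 0.11 in PBS cells. Of 3 FOXO factors tested, FOXO4 was higher in all 3 pre-incubations, by 0.78 ± 0.17, 0.99 ± 0.17 and 0.58 ± 0.17, and FOXO3 was lower in cNSF cells (-0.33 ± 0.094).

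**Figure D5:**
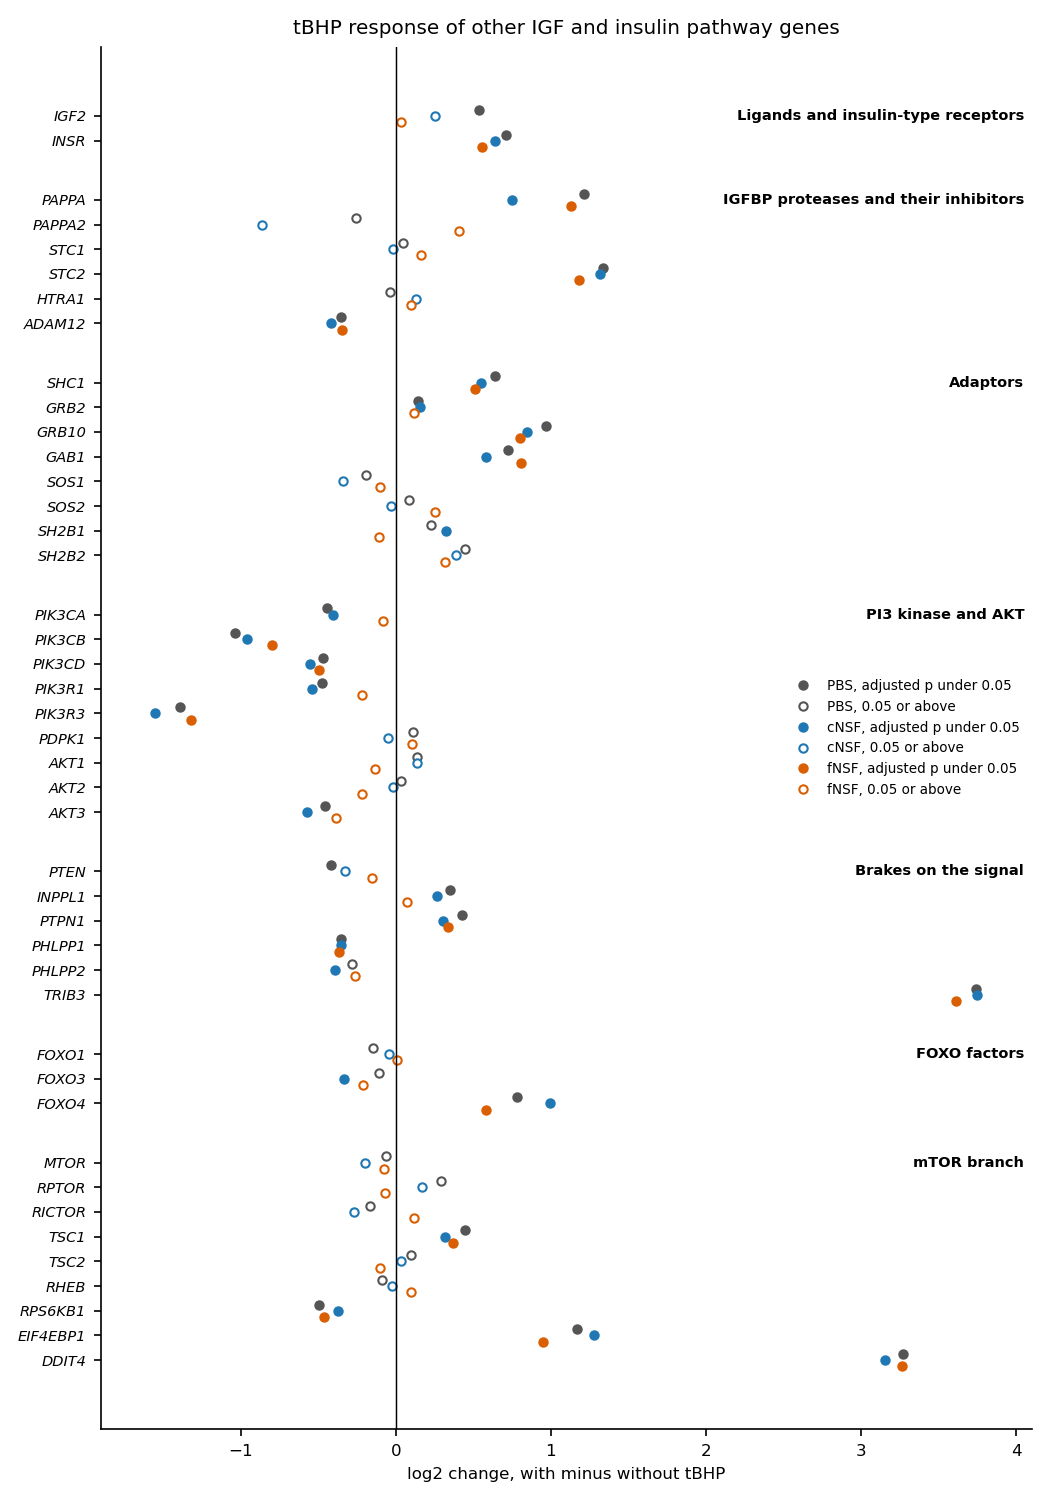
Log2 change with tBHP (x axis, normalized count + 1) of the 43 tested genes of the IGF and insulin pathway other than the 10, by role, in PBS, cNSF and fNSF cells, filled where the adjusted p in limma is under 0.05. TRIB3 and DDIT4 lie above 3 in each pre-incubation, the adaptors that pass lie above 0, and the PI3 kinase and AKT genes that pass lie below 0.

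The genes most like the 5 responding ones were found by Pearson's r of log2 values over the 18 libraries, among 10001 genes with a mean of at least 100 normalized counts. Since tBHP divides the libraries, such values are high for many genes and are given as a description. IGFBP3 was most like SH2D4A (r = 0.995) and ZNF367 (0.991). IGFBP5 was most like COL8A1 (0.977) and THSD4 (0.975), and IRS1 was most like NUP188 (0.992) and COL3A1 (0.983). IGF1R was most like NID2 (0.989) and BAZ2A (0.984), and IRS2 was most like ZBTB7A (0.969) and CDC42EP4 (0.957). With the group means taken off, r fell to 0.94 for IRS1 with NUP188 and to 0.69 for IRS2 with ZBTB7A.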

How the data were processed

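RNA of 18 samples was made into TruSeq RNA V2 libraries from polyadenylated RNA and sequenced as single-end reads. Per the submitters' processing notes the authors used Trimmomatic 0.32, STAR 2.5.2b, featureCounts of Subread 1.5.0-p3 and DESeq2 on GRCh38.p7; the annotation and the strand setting are not given in the sources used here. The deposited values are a signal, the reads of each gene scaled by DESeq2 size factors per library, called normalized counts here. Dividing out 1 factor per library gave whole reads for 100% of values, within 0.001 read. Deposited columns of p-values and a ranking score, from a test by the authors, were not used.

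Groups came from the labels, and the replicates are biological per the study's methods. Genes with a mean of at least 10 were tested on log2(normalized count + 1) in limma 3.58.1 (R 4.3.3) with its trend option, 1 coefficient per group and all 18 libraries, 2-sided, with Benjamini-Hochberg adjustment over 13686 genes and a threshold of 0.05. The steps were tested on simulated data with the same spread in every group, so this test does not cover the larger spread with tBHP. The 10 genes and the lists were chosen with earlier results of these data known. Named in the text are the 10 genes, the 2 with the smallest p in each comparison between pre-incubations and each interaction, per role the up to 2 pathway genes with the largest response in PBS cells among those past the threshold, and the 2 genes most like each of the 10 that passed in all 3 responses; ADAM12, RPS6KB1 and FOXO3 were named after their values were seen. Alternatives were pseudocounts of 0.1 and 5, filtering by no minimum or by a mean of 50, TMM, quantile normalization, only the compared groups, a replicate block, edgeR 4.0.16 and DESeq2 1.42.0 on the recovered reads, leaving out each library, and, added after seeing the data, removal of the trend over GC content and exon length. Promoter windows are from RefSeq (GRCh38.p14); 9 of 10 genes matched.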

Additional observations from a re-analysis of the deposited data

How the results depend on the processing

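IGFBP3, IGFBP5, IRS1 and IGF1R kept their direction and their call with tBHP in all 3 pre-incubations under every alternative run, and so did IRS2 in PBS and cNSF cells. Counts of the 10 genes that were higher with tBHP moved from 3 to 5 in PBS cells and from 2 to 1 in fNSF cells with only the compared groups in the fit. Leaving out single libraries gave 2 to 5 in PBS cells (5 without replicate 2 or 3 of fNSF with tBHP) and 1 to 3 in fNSF cells. The pathway genes lower in fNSF cells went from 6 to 10 with the GC and length trend removed and ran from 5 to 11 without single libraries (11 without replicate 2 of fNSF with tBHP), and those lower in cNSF cells from 7 (without replicate 3 of cNSF with tBHP) to 13. Without single libraries the 10 genes called in fNSF against PBS and in cNSF against fNSF with tBHP ran from 0 to 4, with 4 only without replicate 3 of fNSF with tBHP.

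Among the tBHP changes, directions turned for IGFBP2, IGFBP4, IGFBP6, IGFBP7 and IGF2R, including the calls of IGFBP4 and IGFBP6 in cNSF cells. With the GC and length trend removed, the tBHP changes in PBS cells were -0.26 for IGFBP2, -0.10 for IGFBP4, -0.063 for IGFBP6 and -0.010 for IGFBP7. In cNSF cells they were -0.094 for IGFBP4 and -0.034 for IGFBP6, and in fNSF cells -0.0031, -0.014 and -0.11 for IGFBP4, IGFBP6 and IGFBP7. IGFBP4 became -0.12 in cNSF against fNSF with tBHP and -0.091 in their interaction. Other differences between pre-incubations that turned with that correction, past the threshold in neither setting, include IRS2 (from 0.15 to -0.053) and IGFBP3 (from 0.0084 to -0.032) in cNSF against fNSF with tBHP, IGFBP3 (from -0.0056 to 0.045), IGFBP4 (from -0.23 to 0.078) and IGF2R (from -0.031 to 0.043) in fNSF against PBS with tBHP, and the interaction of cNSF against fNSF for IRS1 (from -0.015 to 0.035). Quantile normalization gave -0.0020 for IGFBP4 and -0.016 for IGFBP7 in fNSF cells. Without single libraries IGFBP2 ran from -0.093 to 0.082 in PBS cells and from -0.39 to 0.022 in fNSF cells, IGF2R from -0.039 to 0.28 in cNSF cells, and in fNSF cells IGFBP4 from -0.049 to 0.22, IGFBP6 from -0.15 to 0.32 and IGFBP7 from -0.093 to 0.081. The causes were not tested.

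The replicate numbers showed no clear pairing of the libraries. In no comparison did each of the 3 pairs correlate above 0.1 in their deviations from the group means. In none did every library correlate best with its own number. The correlations of same-numbered libraries ran from -0.12 to 0.33. This check cannot exclude that libraries were handled together, since effects of single libraries also enter the deviations. With the replicate block 4 of the 10 genes were higher with tBHP in PBS cells in place of 3, through IGFBP4 (0.25, adjusted p = 0.0470), and 0 passed between pre-incubations. The genes called over the whole table in fNSF against PBS with tBHP were 19 in the main test, 61 with the block, 40 under TMM, 0 with only the compared groups, 36 in edgeR and 406 in DESeq2, and ran from 0 to 4024 without single libraries. With only the compared groups in the fit, 980 genes passed in cNSF against fNSF and 21 in fNSF against PBS without tBHP, with 0 of the 10 genes among them. With 3 libraries a group, and a spread that is larger with tBHP, differences between pre-incubations of the size seen here can be missed.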
